A study of Homo sapiens with 4 samples.

Results

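The genes described here are the fibroblast growth factor (FGF) ligands FGF1, FGF2, FGF5 and FGF7, the intracellular family members FGF11 and FGF13 and the receptors FGFR1, FGFR2, FGFR3 and FGFR4. They were measured by bulk RNAseq in the core and the invasion zone of melanoma spheroids. These 10 genes were taken by symbol from a table of 56304 genes, because FGF1 was already known to be higher in the invasion zone of the same libraries. The zone values of the 10 genes are therefore given as a description, without a test. The question was whether the difference seen for FGF1 was shared by other ligands or by the receptors. The cells were MV3, an established human line of highly metastatic melanoma that carried an H2B-GFP reporter in both zones, and no treatment was given. Spheroids (50000 cells, 1 mm in diameter) invaded a collagen I gel until day 2, when a 1 mm punch removed the core and a 3 mm punch the ring of invading cells, and each zone had 2 libraries, numbered 1 and 2. The punches separated the zones only sideways, so core samples may include some cells that had invaded upwards or downwards.

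FGF ligands of the paracrine group, such as FGF1, FGF2, FGF5 and FGF7, leave the cell, bind heparan sulfate on its surface and activate the receptor tyrosine kinases FGFR1 to FGFR4. The active receptor recruits the adaptor FRS2 and starts the RAS-MAPK cascade, which in turn induces its own inhibitors, the Sprouty proteins and the dual-specificity phosphatases. FGF11 and FGF13 belong to another branch that stays inside the cell, does not act through these receptors in the usual way and binds voltage-gated sodium channels. In melanoma, FGF2 made by the tumor cells themselves is a known growth factor, which normal melanocytes need from outside.

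The libraries held between 11789243 and 37591782 counts, and both libraries numbered 2 were the shallower ones. Values are given as CPM, meaning counts scaled to a common library size by the trimmed mean of M values. In bulk samples such as these, fewer cells that express a gene and less of its RNA per cell cannot be told apart. Ratios within a replicate set libraries of the same number side by side. The paper punched out a core and then its corresponding invasion zone, but the labels do not say what a number marks. The tests below leave this number out, and the calls with it as a block are given with the other alternatives. Of 10 melanocyte lineage markers, SOX10 and TYR had 0 counts in every library and DCT had 1 count in all. S100B had counts only in the libraries numbered 2 (1 and 3). MITF (1.71 to 3.36 CPM), MLANA (0.596 to 0.977 CPM), PMEL (0.267 to 1.01 CPM) and TYRP1 (0.14 to 0.504 CPM) were low but had counts in every library. The melanocyte identity of the line was thus only weakly visible in these transcripts. CSPG4 and MCAM, also expressed by melanoma cells, were present at 36.8 to 51.3 CPM and 18.5 to 31.3 CPM. Of 6 markers of dedifferentiated melanoma, the receptor kinase AXL had 628 to 1222 CPM and EGFR 134.9 to 207.4 CPM. SOX9 had 122.5 to 163.4 CPM and NRG1 17.33 to 48.25 CPM, whereas NGFR had only 2 and 1 counts in the core and 1 and 0 in the invasion zone. AXL, EGFR and NRG1 were higher in both invasion zone libraries and SOX9 overlapped. WNT5A was lower there, with 179.8 and 81.2 CPM in the core and 54.0 and 17.9 CPM in the invasion zone. Summed epithelial and leukocyte markers stayed under 1 CPM in each library. Of the fibroblast markers, DCN and LUM were at 0 in every library, and PDGFRA supplied nearly the whole sum of 59.3 to 97.1 CPM in the core and 13.8 to 38.7 CPM in the invasion zone. Of the endothelial markers, PECAM1 supplied most of 7.62 to 18.4 CPM in the core and 0.925 to 5.89 CPM in the invasion zone. Summed over 10 cell cycle genes, the core libraries had 671 and 1247 CPM and the invasion zone libraries 1965 and 2410 CPM. Summed over 10 hypoxia-inducible genes, the core had 6884 and 6184 CPM and the invasion zone 2993 and 2527 CPM. LDHA and PGK1 supplied most of these sums, with 3853 and 3319 CPM and 1798 and 1739 CPM in the core. The log2 fold changes of the 9 genes tested ran from -4.19 (CA9) to -0.40 (PDK1), and EGLN3 was too low to be tested. The part of the cell cycle and hypoxia-inducible genes in the results on FGF genes was not tested.

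The 4 members that carried nearly all the family's counts were FGF1, FGF2, FGF5 and FGFR1. FGF1 is transcribed from chromosome 5 of GRCh38 (142592178 to 142698070, minus strand), and RefSeq lists several starts for it, which gene counts cannot tell apart. FGF5 (80266639 to 80336680) and FGF2 (122826682 to 122898236) both lie on the plus strand of chromosome 4. The bases before 3 of the FGF1 starts and before the first start of FGF5 and FGF2 are shown because these 3 ligands made up most of the FGF ligand transcripts. They are RefSeq windows of GRCh38.p14, printed 5′ to 3′ on the strand of the gene and ended at the first base of an annotated exon, so that 3 of them have 250 bases and the others 188 and 101. Capitals mark matches on either strand to the motifs searched, a choice made after the values were seen. The motif of AP-1 was spelled TGANTCA, and that of TEAD factors GGAATG. The hypoxia response motif was ACGTG. The GC box was GGGCGG, whereas the TATA box was TATAAA. The sixth motif, of E2F factors, was TTTNNCGC.
FGF1, farthest upstream start (chr5:142698071-142698320, minus): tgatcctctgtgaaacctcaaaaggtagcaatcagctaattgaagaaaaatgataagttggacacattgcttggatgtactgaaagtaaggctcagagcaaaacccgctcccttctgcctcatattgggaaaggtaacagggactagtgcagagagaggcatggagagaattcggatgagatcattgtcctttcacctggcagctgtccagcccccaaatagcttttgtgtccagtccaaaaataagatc
FGF1, middle start (chr5:142686091-142686340, minus): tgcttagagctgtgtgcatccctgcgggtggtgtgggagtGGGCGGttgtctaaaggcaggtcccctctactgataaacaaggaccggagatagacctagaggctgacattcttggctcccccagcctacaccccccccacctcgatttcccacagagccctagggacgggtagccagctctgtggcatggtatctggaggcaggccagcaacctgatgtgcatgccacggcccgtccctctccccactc
FGF1, farthest downstream start (chr5:142644302-142644489, minus): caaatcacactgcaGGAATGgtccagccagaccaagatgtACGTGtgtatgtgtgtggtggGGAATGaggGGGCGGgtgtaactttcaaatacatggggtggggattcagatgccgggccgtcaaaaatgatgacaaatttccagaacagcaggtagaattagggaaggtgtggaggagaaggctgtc
FGF5 (chr4:80266338-80266587, plus): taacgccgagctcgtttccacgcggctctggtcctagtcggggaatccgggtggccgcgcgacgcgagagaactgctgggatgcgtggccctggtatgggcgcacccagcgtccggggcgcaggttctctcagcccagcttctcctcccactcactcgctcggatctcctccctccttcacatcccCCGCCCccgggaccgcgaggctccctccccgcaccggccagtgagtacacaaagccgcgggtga
FGF2 (chr4:122826581-122826681, plus): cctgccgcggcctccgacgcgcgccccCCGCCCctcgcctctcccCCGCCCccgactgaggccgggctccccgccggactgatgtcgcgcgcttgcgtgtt

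The windows differed among the ligands. The farthest upstream FGF1 window had 44.8% G and C and none of the 6 motifs. The middle FGF1 window had 60.8% G and C and 1 GC box, a motif held by 42.6% of 35116 RefSeq windows of that length. The farthest downstream FGF1 window held 2 TEAD motifs, 1 hypoxia response motif and 1 GC box. Of all windows cut to 188 bases, 9.18%, 13.3% and 32.6% held at least 1 match to these motifs. The share with 2 matches was not counted. FGF5 had 68.8% G and C and 1 GC box. FGF2 had 80.2% and 2 GC boxes, where 17.5% of all windows cut to 101 bases held at least 1 match to this motif. No match here says that a factor was bound, and among the windows shown FGF1 and FGF5 had no motif in common beyond the GC box.

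The highest ratio between the zones among the members was that of FGF1, the acidic FGF, which can bind each of the 4 receptors. The core libraries had 4.88 and 10.5 CPM (175 and 159 counts), and the invasion zone libraries had 23.3 and 42.1 CPM (874 and 501 counts). The lowest invasion zone value was above the highest core value, and in each zone the library numbered 2 was the higher one. Within replicate 1 the invasion zone had 4.77 times the core level (exact 95% interval of the ratio of 2 counts 4.05 to 5.64, counting error only). Within replicate 2 the ratio was 4.0 (3.34 to 4.81), so that the ratios differed less between the replicates than the levels within a zone did. The core mean was 7.71 ± 3.99 CPM, against 32.7 ± 13.3 CPM for the invasion zone (SD, n = 2 each). In the fit over all 15529 genes tested the log2 fold change was 2.12 (standard error 0.46), and 26 genes, FGF1 included, reached this value or a higher one. It moved between 1.63 without core replicate 1 and 2.74 without core replicate 2.

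FGF5, a ligand best known for ending the growth phase of hair, was the most abundant FGF transcript of these cells and was higher in the invasion zone as well. The core libraries had 103 and 149 CPM, and the invasion zone libraries had 213 and 314 CPM. Both invasion zone libraries again exceeded both core libraries, and the library numbered 2 was the higher one in each zone, as for FGF1. The ratio was 2.07 (1.99 to 2.15) within replicate 1 and 2.11 (2.00 to 2.22) within replicate 2. The log2 fold change was 1.06 (standard error 0.27), between 0.76 without invasion zone replicate 2 and 1.36 without core replicate 2. In absolute terms the transcript gained more CPM than FGF1, with a core mean of 126 ± 32.4 CPM against 263 ± 71.1 CPM for the invasion zone (SD, n = 2 each). FGF5 shares 136 of its 5958 exonic bases with CFAP299 on the same strand.

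FGF2, the basic FGF, lay between these in level and showed the smallest difference of the 3 ligands. It had 54.9 and 49.9 CPM in the core and 69.6 and 77.1 CPM in the invasion zone. The zones did not overlap, but in the core the library numbered 1 was the higher one. The ratio was 1.27 (1.2 to 1.35) within replicate 1 and 1.54 (1.40 to 1.70) within replicate 2. The log2 fold change was 0.48 (standard error 0.15). On the opposite strand the gene NUDT6 covers 804 of the 6801 exonic bases of FGF2, and the strand setting of the counting is not given in the sources used here, so FGF2 counts are less certain.

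For the receptor the zones overlapped, unlike for the 3 ligands. FGFR1 (chromosome 8, 38400215 to 38468834, minus strand) was nearly the only transcript of an FGF receptor kinase. It had 19145 counts over the 4 libraries against 21 counts for FGFR2, FGFR3 and FGFR4 together. Per kilobase of exon it made up between 99.5% and 99.8% of the transcripts of these 4 receptor kinases in a library. FGFRL1, which has no kinase domain, had 4.91 to 9.43 CPM per kb and was left out of this share. The core libraries had 219 and 181 CPM, and the invasion zone libraries had 184 and 141 CPM. The overlap arose because invasion zone replicate 1 lay above core replicate 2. Within a replicate the invasion zone was the lower one, with a ratio of 0.838 (0.812 to 0.866) in replicate 1 and 0.778 (0.732 to 0.827) in replicate 2. The log2 fold change was -0.30 (standard error 0.19), and it moved between -0.51 without invasion zone replicate 1 and -0.12 without invasion zone replicate 2.

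FGFR2, FGFR3 and FGFR4, the other receptor kinases of the family, were at the detection limit. FGFR3 had 5 and 2 counts in the core and 6 and 1 in the invasion zone. FGFR2 had 1 and 0 counts in the core and 2 and 0 in the invasion zone, and FGFR4 had 1 and 2 against 1 and 0. No zone difference was detectable at this depth, with a ratio over the summed counts of 1.03 for FGFR3 (exact 95% interval 0.308 to 3.44), 2.06 for FGFR2 (0.107 to 122) and 0.344 for FGFR4 (0.00654 to 4.28). A library with 0 counts allows a level of up to 0.254 CPM at the depth of invasion zone replicate 2 and 0.2 CPM at that of core replicate 2 (3 counts). FGF7, the keratinocyte growth factor, which is made by stromal cells and binds a splice form of FGFR2, had 5 and 2 counts in the core and 8 and 0 in the invasion zone.

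The intracellular members were also rare. FGF13 had 0.558 and 0.530 CPM in the core (20 and 8 counts) and 0.346 and 0 CPM in the invasion zone (13 and 0 counts). Both invasion zone libraries were below both core libraries, but the interval of the ratio within replicate 1 reached from 0.284 to 1.31, and that of replicate 2 from 0 to 0.743. FGF13 passed the filter on low counts only through its core libraries. FGF11 had 4 and 1 counts in the core and 2 and 1 in the invasion zone, and 4169 of its 5080 exonic bases are shared with other annotated genes on the same strand.

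**Figure D1:**
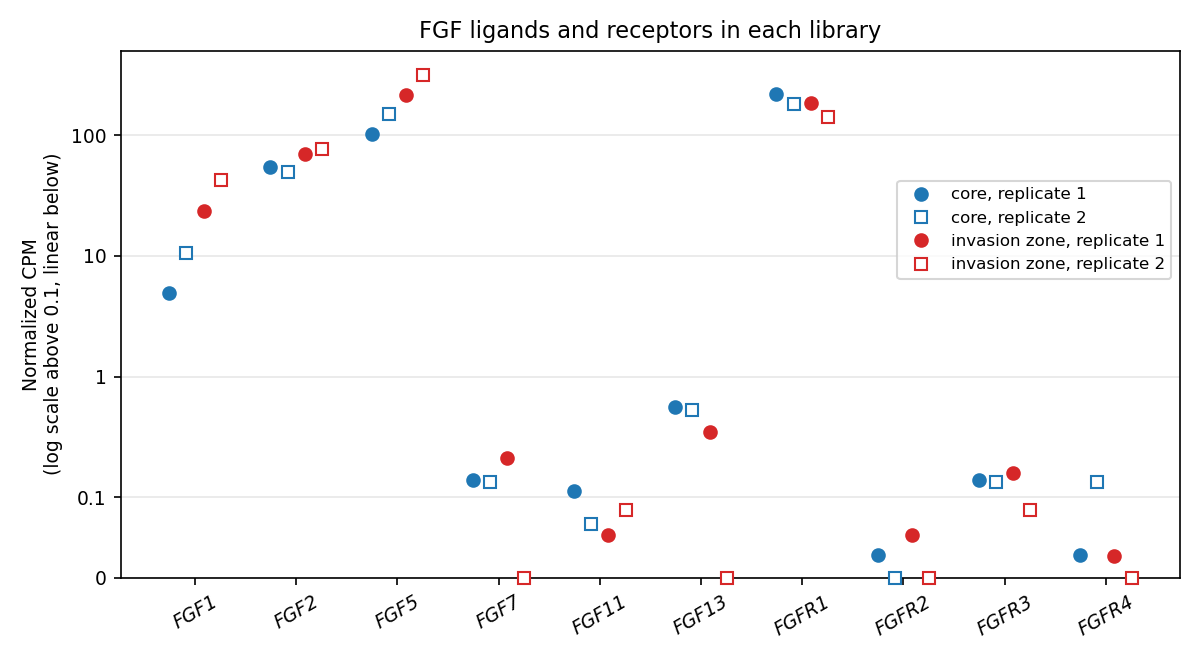
Normalized CPM (vertical axis, logarithmic above 0.1 and linear below) of the 10 FGF ligands and receptors (horizontal axis) in the 4 libraries, 1 symbol per library. FGF1, FGF2 and FGF5 have both invasion zone libraries above both core libraries, FGFR1 overlaps, and the other 6 genes lie under 1 CPM.

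**Figure D2:**
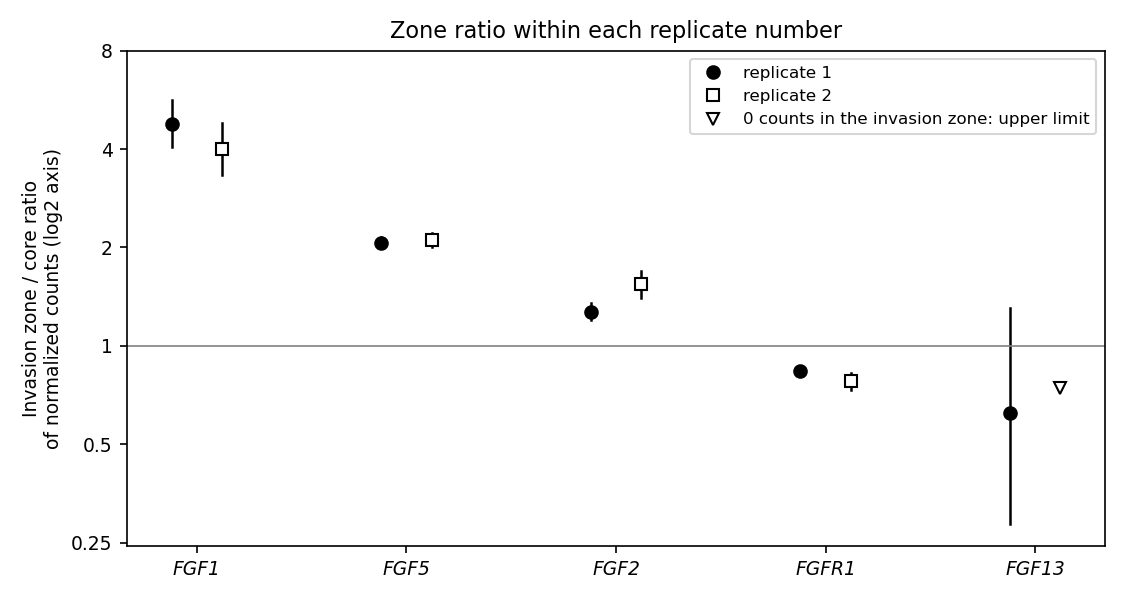
Ratio of the invasion zone to the core within each replicate number (log2 axis) for the 5 members that passed the filter on low counts, with exact 95% intervals for counting error, which are hidden by the symbol where they are narrow. FGF1 lies at 4.77 and 4.0, FGF5 at 2.07 and 2.11, FGF2 at 1.27 and 1.54, and FGFR1 at 0.838 and 0.778.

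Of the 10 members, 5 passed the filter on low counts, namely FGF1, FGF2, FGF5, FGF13 and FGFR1. The zones did not overlap for 4 of these 5, beside 58.4% of all genes tested. The invasion zone was the higher one for 3 (28.1% of all genes tested) and the lower one for 1 (30.3% of all genes tested). The lower one was FGF13, with 13 and 0 counts in the invasion zone. It passed the filter only through its core libraries, so nothing is read from its place in this count. The quasi-likelihood test of edgeR, with Benjamini-Hochberg adjustment and at least a 2-fold change, called 0 of the 5, against 0% of all genes in either direction, and nothing is read from this count because the genes were chosen on this comparison. Over all genes this test, fitted without a replicate term, called 0 higher and 0 lower, with 495 and 994 at an unadjusted p under 0.05, whereas DESeq2 with adjusted p called 354 higher (2.28%) and 548 lower (3.53%).

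Compared per kilobase of exon, the order of the levels in the core was FGF5 (17.3 and 25.0 normalized CPM per kb), FGFR1 (12.7 and 10.5), FGF2 (8.07 and 7.34) and FGF1 (0.981 and 2.12), without overlap between neighbours. In the invasion zone FGF5 had 35.8 and 52.7 CPM per kb. FGF2 (10.2 and 11.3), FGFR1 (10.7 and 8.17) and FGF1 (4.68 and 8.46) followed, where FGFR1 overlapped with each of its neighbours. The place of FGFR1 rests on its length. With the canonical transcript of 5697 bases in place of the 17201 bases of all its exons, FGFR1 had 38.5 and 31.7 CPM per kb in the core, above FGF5 (19.4 and 28.0), but stayed below FGF5 in the invasion zone (32.3 and 24.7 against 40.1 and 59.1).

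The makeup of the ligand pool was followed by summing 22 FGF genes per kilobase of exon. All are called ligand genes here, although they include intracellular members such as FGF11, FGF13 and FGF14. The sum was 27.4 and 35.4 CPM per kb in the core and 52.0 and 73.2 CPM per kb in the invasion zone. FGF5 held most of the pool, with 63.3% and 70.7% in the core and 68.8% and 71.9% in the invasion zone, ranges that overlap. The share of FGF1 was 3.58% and 5.98% in the core and 8.99% and 11.5% in the invasion zone. The share of FGF2 was 29.5% and 20.8% in the core and 19.7% and 15.5% in the invasion zone. FGF1 thus had the higher share and FGF2 the lower share in both invasion zone libraries, and the ligands other than these 3 held between 1.08% and 3.68% of the pool.

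**Figure D3:**
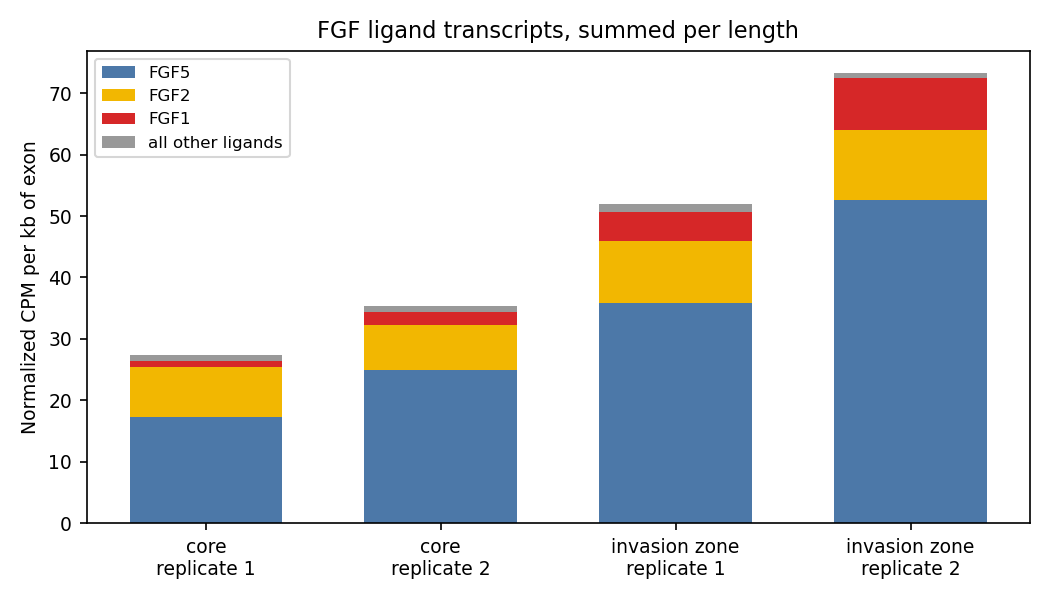
Stacked bars of the FGF ligand transcripts in each of the 4 libraries, in normalized CPM per kb of exon (vertical axis from 0), with FGF5, FGF2, FGF1 and the sum of the other 19 ligand genes as segments. The bars reach 27.4 and 35.4 in the core and 52.0 and 73.2 in the invasion zone, and the FGF1 segment is between 3.58% and 11.5% of a bar.

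Among the 16 other FGF ligand genes, 7 had 0 counts in every library and 3 passed the filter on low counts. By edgeR without a replicate term 0 of these 3 were called in either direction, beside 0% of all genes tested. FGF14, another intracellular FGF, had 1.28 and 1.59 CPM in the core and 2.74 and 3.70 CPM in the invasion zone (log2 fold change 1.15, standard error 0.36, adjusted p = 0.145, edgeR), and 4567 of its 14646 exonic bases are shared with genes on the opposite strand. FGF12 had 0.558 and 0 CPM against 0.720 and 0.504 CPM, and FGF18 had 1.03 and 0.795 CPM against 0.853 and 0.757 CPM. Of those that did not pass, chosen after their values were seen, FGF22 had 14 and 10 counts in the core and 4 and 2 in the invasion zone, a ratio over the summed counts of 0.258 (exact 95% interval 0.0861 to 0.647). FGF23, a hormone-like FGF of phosphate balance, had 53 counts in invasion zone replicate 1, against 5 and 1 in the core libraries and 2 in invasion zone replicate 2, so its excess was seen in 1 library.

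The wider pathway was described with 10 lists of 120 genes, of which 83 passed the filter on low counts. Of these 83, edgeR without a replicate term called 0 higher and 0 lower after adjustment, with a smallest adjusted p of 0.112. The same test called 0 of all 15529 genes tested, so the absence of a call says nothing particular about a list. At an unadjusted p under 0.05 and at least a 2-fold change, 3 were higher (DUSP5, FOSL1 and FGF14) and 2 were lower (IER3 and SCN9A). The background of that rule was 3.19% higher and 6.40% lower of all genes tested. DESeq2 with adjusted p called DUSP5 and FOSL1 higher and IER3 and SCN9A lower. The median log2 fold change of the 83 was -0.03, beside -0.01 over all genes tested, and of these genes 20 had both invasion zone values above the core values (24.1%, beside 28.1% of all genes tested) and 25 had both below (30.1%, beside 30.3%).

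The feedback inhibitors of the pathway had the lowest median of the lists of more than 5 tested genes, with a log2 fold change of -0.49 over 12 genes. EdgeR without a replicate term called none of them, beside 0% of all genes tested. Both invasion zone libraries were below both core libraries for 6 of the 12, beside 30.3% of all genes tested, and above for 2, beside 28.1%. SPRY1, a Sprouty inhibitor of receptor tyrosine kinase signaling, had 151 and 83.1 CPM in the core and 51.2 and 7.73 CPM in the invasion zone (log2 fold change -1.94, standard error 0.80, adjusted p = 0.203, edgeR). Invasion zone replicate 2 was far the lowest of the 4 SPRY1 values, and the ratio was 0.340 within replicate 1 and 0.0931 within replicate 2. DUSP6, the phosphatase that switches off ERK, had 110 and 113 CPM in the core and 86.8 and 67.4 CPM in the invasion zone (adjusted p = 0.146, with 1105 of its 3859 exonic bases shared with genes on the opposite strand). DUSP5, the nuclear ERK phosphatase, went the other way, with 7.34 and 11.4 CPM in the core and 18.3 and 26.4 CPM in the invasion zone (log2 fold change 1.27, standard error 0.31, adjusted p = 0.118). DUSP4, a related nuclear phosphatase chosen after its values were seen, had 88.3 and 88.4 CPM against 51.4 and 43.6 CPM (adjusted p = 0.112). The other Sprouty genes had log2 fold changes of -0.03 (SPRY2), -0.45 (SPRY3) and 0.28 (SPRY4), and none of them was called.

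The transcriptional outputs were split as well, the median of the log2 fold changes being 0.17 for 12 genes tested, 3 of them with both invasion zone libraries above both core libraries and 3 below, beside 28.1% and 30.3% of all genes tested. None was called by edgeR without a replicate term, beside 0% of all genes tested. FOSL1 was called by edgeR without a filter on low counts (adjusted p = 0.0468), and FOSL1 and IER3 were called by DESeq2. FOSL1, the AP-1 subunit FRA1, had 223 and 325 CPM in the core and 501 and 618 CPM in the invasion zone (log2 fold change 1.03, standard error 0.23, adjusted p = 0.114). CCND1, cyclin D1, had 333 and 368 CPM against 468 and 505 CPM (adjusted p = 0.143), and PHLDA1, an ERK-induced gene, overlapped at 349 and 448 against 419 and 458 CPM. Of the ETS factors that commonly report FGF signaling, ETV4 and ETV5 overlapped between the zones, and ETV1 had both invasion zone values below the core values. ETV4 had 46.4 and 41.3 CPM in the core and 46.3 and 40.9 CPM in the invasion zone, ETV5 had 212 and 160 against 199 and 132 CPM, and ETV1 had 92.1 and 77.6 against 60.0 and 32.3 CPM. IER3, an immediate-early gene that is also responsive to stress, had 98.8 and 58.6 CPM in the core and 40.6 and 21.3 CPM in the invasion zone (log2 fold change -1.33, standard error 0.38, adjusted p = 0.134, edgeR). Of its 1350 exonic bases, 525 are shared with genes on the opposite strand, so its counts are less certain.

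The relay between receptor and nucleus had a median near 0. Over the 21 adaptor and RAS-MAPK genes, which were all tested, the median log2 fold change was -0.03, and the values ran from -0.78 to 0.68. By edgeR without a replicate term 0 of 21 were called, beside 0% of all genes tested. SHC1, the most abundant adaptor, had 639 and 531 CPM in the core and 567 and 456 CPM in the invasion zone, and GRB2, which links receptors to RAS, had 267 and 238 against 264 and 245 CPM.

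Among genes that set how a ligand reaches its receptor, edgeR without a replicate term called 0, beside 0% of all genes tested. This was 0 of 6 proteoglycan cores, 0 of 13 heparan sulfate enzymes, 0 of 8 export and partner genes and 0 of 2 decoy receptor and FGF-binding protein genes. Nothing is read from these counts. The median log2 fold changes of these lists were -0.03, -0.09, 0.19 and 0.06. Syndecan-3 (SDC3) had 339 and 167 CPM in the core and 169 and 87.6 CPM in the invasion zone (log2 fold change -0.98, standard error 0.43, adjusted p = 0.226), while syndecan-4 (SDC4) had 253 and 260 against 287 and 235 CPM. Syndecan-1 (SDC1), chosen after its values were seen, had 119 and 163 against 206 and 272 CPM (log2 fold change 0.76, standard error 0.22, adjusted p = 0.136, edgeR). Syndecan-2 (SDC2), chosen likewise, was lower, at 4.86 and 3.31 against 2.9 and 2.61 CPM. HS3ST3A1, a heparan sulfate sulfotransferase chosen after its values were seen, had the highest fold change of the enzymes, with 14.5 and 34.9 CPM in the core and 35.6 and 72.3 CPM in the invasion zone (log2 fold change 1.13, standard error 0.51, adjusted p = 0.231, edgeR). The heparan sulfate polymerase genes EXT1 and EXT2 differed by log2 fold changes of 0.04 and -0.20. LRRC59, which is needed for the nuclear import of FGF1, had 214 and 302 CPM in the core and 358 and 527 CPM in the invasion zone (log2 fold change 0.78, standard error 0.26, adjusted p = 0.155). API5, a nuclear protein that binds FGF2, had 149 and 169 against 176 and 206 CPM (adjusted p = 0.334). FGFRL1, an FGF receptor without a kinase domain, had 30.3 and 21.3 CPM in the core and 40.9 and 29.8 CPM in the invasion zone, where the zones overlapped although the ratio was 1.35 and 1.40 within the replicates. FGFBP3, a secreted FGF carrier, had 5.13 and 5.17 against 4.0 and 4.2 CPM.

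Receptor splicing and sodium channel genes complete the lists. ESRP1 and ESRP2, the epithelial factors that favor the splice forms of FGFR2 bound by FGF7, had 2 and 11 counts over the 4 libraries. PTBP1, a general splicing repressor, had 312 and 307 CPM in the core and 490 and 451 CPM in the invasion zone (log2 fold change 0.60, standard error 0.14, adjusted p = 0.115), and RBFOX2 had 103 and 116 against 100 and 121 CPM. Of 13 sodium channel genes, partners of FGF13 and FGF11, 4 were tested. Among these 4, edgeR without a replicate term called 0, beside 0% of all genes tested, whereas DESeq2 called SCN9A lower (adjusted p = 0.0176). SCN9A had 1.87 and 4.17 CPM in the core and 0.666 and 0.168 CPM in the invasion zone (log2 fold change -2.41, standard error 0.67, adjusted p = 0.128), and 1589 of its 13946 exonic bases are shared with an antisense gene. SCN8A and SCN2A overlapped between the zones, with log2 fold changes of 0.17 and -0.39.

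**Figure D4:**
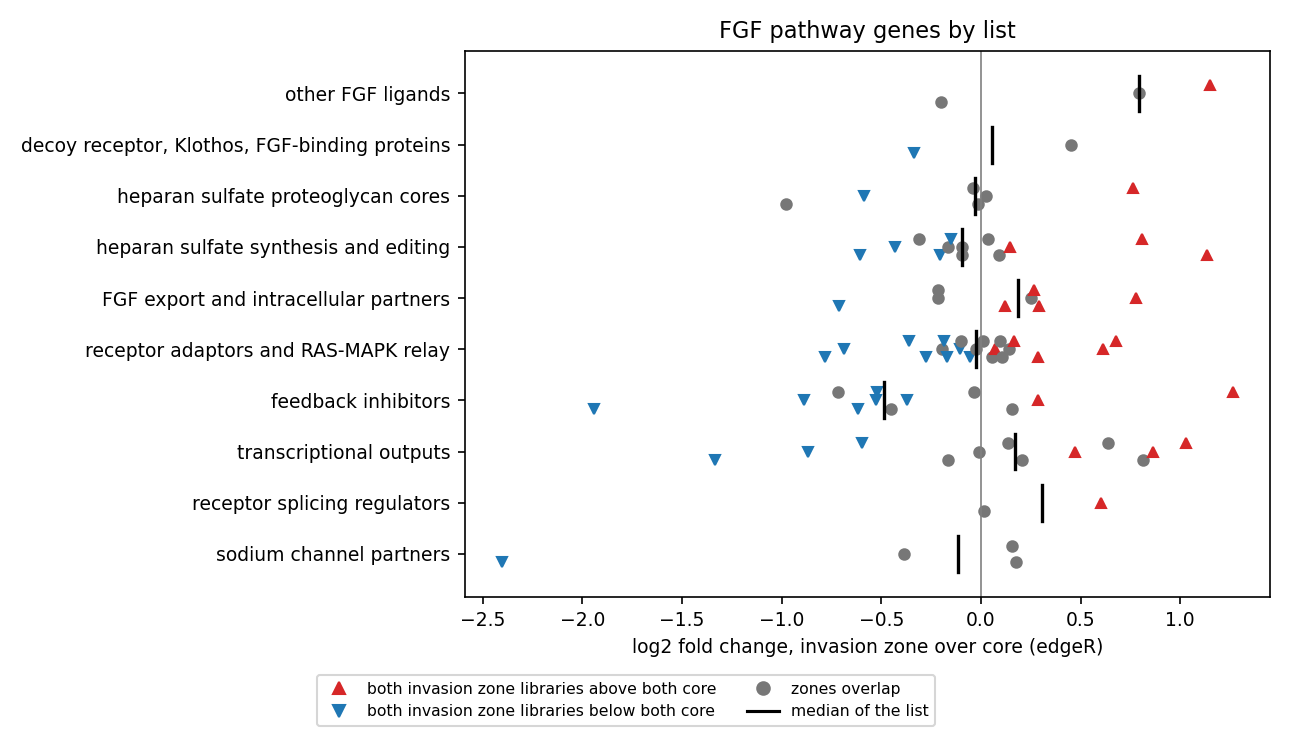
Log2 fold change between the zones (horizontal axis, edgeR, positive where the invasion zone was higher) for the 83 tested genes of the 10 FGF pathway lists, 1 symbol per gene and a black bar at the median of each list. Upward triangles mark the 20 genes with both invasion zone libraries above both core libraries and downward triangles the 25 with both below, and the 12 feedback inhibitors have a median of -0.49.

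The genes whose pattern was closest to that of FGF1 were sought over the 4 libraries, by the root mean square difference of log2(CPM + 0.5) centred on each gene. They were the noncoding RP11-1E6.1 (0.0685 log2 units) and LINC00707 (0.0939), the keratin-associated gene KRTAP2-3 (0.129) and the helix-loop-helix inhibitors ID1 (0.133) and ID3 (0.155). ID1 had 11.9 and 22.4 CPM in the core and 51.6 and 76.1 CPM in the invasion zone, and ID3 had 58.9 and 129 against 309 and 411 CPM. Closest to FGFR1 were PNKD, USP35, PHF11, FAM107B and LPIN2, at 0.00498 to 0.0190 log2 units. With 4 libraries many genes share a pattern closely, and the likeness is a description of these libraries.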

How the data were processed

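Counts of 4 libraries (2 core and 2 invasion zone) were analysed. The deposited values are raw counts, for which the authors discarded reads matching rRNA (Bowtie), mapped the others to hg38 (STAR) and kept unique hits for HTSeq-count. Neither annotation release nor strandedness was given in the sources used here. Of 56306 rows, 2 repeated rows without counts were left out, and GENCODE release 44 held 98.1% of the identifiers.

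In R 4.3.3, genes were filtered by filterByExpr (15529 genes) and scaled by TMM (factors 0.985 to 1.009). Zones were compared by the quasi-likelihood test of edgeR 4.0.16 without a replicate term, after a test on simulated data. The simulated data had a smaller spread than these libraries and no replicate effect. They therefore cannot say how many real differences the fit missed here. Calls needed an adjusted p under 0.05 and a 2-fold change. DESeq2 1.42.0, other scalings and filters, a replicate block and each library left out were alternatives. Whether the libraries came from separate cultures is not stated, so p-values measure the spread between these libraries, which may be technical. Libraries of a zone differed beyond sampling noise (chi-square per degree of freedom 33.8 and 31.9).

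The members and lists were chosen with earlier results of these data known. Named were the 10 members, up to 3 called genes in each direction and the 2 most abundant uncalled genes per list (every tested gene where a list had 4 or fewer), and 5 pattern neighbours each of FGF1 and FGFR1. Other genes were chosen after their values were seen. One gene that the rule names is not reported here. Figures were drawn with matplotlib 3.10.9.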

Additional observations from a re-analysis of the deposited data

How the results depend on the processing

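The numbers of called genes depended on the test and on single libraries. Over all genes, 0 higher and 0 lower by edgeR became 81 and 191 without a low-count filter, 495 and 994 at an unadjusted p, and 354 and 548 with DESeq2. Among the pathway genes, 0 and 0 became 1 and 0 without a low-count filter, 3 and 2 at an unadjusted p, and 2 and 2 with DESeq2. With each library left out in turn, which takes the remaining single library to be as variable as the opposite zone, they ranged from 8 (without core replicate 1) to 693 (without core replicate 2) higher and from 108 to 835 and 969 (without invasion zone replicate 1) lower genes. For the pathway genes the range was 0 to 7 higher and 1 to 6 lower. The counts stayed at 0 with upper-quartile or RLE scaling, with a minimum of 10 counts in each library, the legacy quasi-likelihood fit and no fold change minimum. The cause of these shifts was not tested.

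The labels share replicate numbers between the zones but do not say what a number marks, and the deviations of libraries 1 and 2 from the mean of their zone were alike in both zones (correlation 0.64 across genes, 2 pairs). With the replicate number as a block, 588 genes were higher and 1146 lower, and of the pathway genes 4 were higher (DUSP5, FGF14, FOSL1 and HS3ST3A1) and 3 lower (IER3, SCN9A and SPRY1).

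The sign of the zone difference of FGF1, FGF2, FGF5, FGF13 and FGFR1 was the same under each alternative that gave a value, with 2.08 to 2.13 for FGF1 when all libraries were kept. With the canonical transcript length, an alternative chosen after seeing the data for the ligand pool, the mean share of FGF1 in the invasion zone was 12.1% in place of 10.3%. Depth limited FGF7, FGF11, FGFR2, FGFR3 and FGFR4, none of which had more than 15 counts in all.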

Other observations

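The chromosomal surroundings of the 2 ligands with the highest zone ratios were read after these values were known, by the 3 nearest tested genes on each side. None of the neighbours of FGF1 was called by edgeR without a replicate term, beside 0% of all genes tested. Their log2 fold changes lay between -0.59 and 0.28. SPRY4, a feedback inhibitor of FGF signaling, lies 266 kb away from FGF1 and had 27.4 and 28.7 CPM in the core and 35.5 and 32.7 CPM in the invasion zone (log2 fold change 0.28, standard error 0.16). ARHGAP26, 72.3 kb away on the other side, had 14.5 and 18.9 against 12.2 and 14.2 CPM, and NR3C1, the glucocorticoid receptor gene, had 267 and 227 against 249 and 192 CPM. AC005592.2, a gene that overlaps FGF1 on the opposite strand, had 0.865 and 1.19 CPM in the core and 0.666 and 1.09 CPM in the invasion zone.

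Around FGF5, ANTXR2 (141 kb away) had 459 and 524 CPM in the core and 506 and 532 CPM in the invasion zone, and PRDM8 (62.3 kb away) had 62.3 and 35.4 against 66.8 and 34.0 CPM. PRKG2, 751 kb away on the other side, had 2.23 and 1.26 CPM in the core and 0.720 and 0.588 CPM in the invasion zone (log2 fold change -1.44, standard error 0.47, adjusted p = 0.151, edgeR). C4orf22 (named CFAP299 above), which overlaps FGF5 on the same strand, had 1.144 and 2.318 against 2.185 and 3.53 CPM. Its zones overlapped (log2 fold change 0.75, standard error 0.49). The neighbours NAA11 and BMP3 had log2 fold changes of 0.33 and -0.43.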
